A study of Rattus norvegicus with 12 samples.

Results

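The miR-17-92 cluster and its X-linked relative miR-20b were followed in small RNA libraries of rat gastric mucosa. Members were the deposited rows named miR-17, miR-18a, miR-19a, miR-19b, miR-20a, miR-92a or miR-20b, in every arm. This gave 15 of 649 mature miRNAs, named here without their rno- prefix. There were 3 groups of 4 libraries. The normal group is labelled as untreated. The model group represents chronic atrophic gastritis, in which the mucosa loses its glands. It received MNNG (N-methyl-N'-nitro-N-nitrosoguanidine), which alkylates DNA, for 24 weeks in water at 180 µg/ml. The labelled protocol adds 2% sodium salicylate by gavage and a cycle of 2 days of food and 1 day of fasting. The third group, XLHZ, carried the same 24-week exposure and also Xianglianhuazhuo, a herbal formula, for 60 days. The labels name no strain, age or sex, and none says whether a group's libraries are from different rats. P-values therefore measure the spread between libraries, which may be technical.

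The cluster is transcribed as 1 RNA that is cut into several hairpins. Each hairpin gives a 5p and a 3p arm; usually 1 of them, the guide, is kept in the silencing complex, and the other, the passenger, is degraded. The guides are known for driving proliferation downstream of Myc and for repressing the p21 gene Cdkn1a and the pro-apoptotic gene Bcl2l11. Several of them are often reported as high in gastric tumours. Bases 2 to 8 of a mature miRNA, the seed, select most targets.

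All 15 members matched a RefSeq entry by name (build GRCr8). The 6 hairpins of the miR-17-92 cluster lie at chr15:98587848-98588632 on the plus strand, within 785 bases. The paralogous hairpins of miR-20b, miR-17-2, miR-19b-2 and miR-92a-2 lie with miR-363 at chrX:137342777-137343647 on the minus strand. The mature miR-17-5p, miR-19b-3p and miR-92a-3p are each annotated at a locus on both chromosomes, so their counts cannot be assigned to either. miR-20b-5p, miR-20b-3p and miR-17-2-3p are annotated on X alone, and the other 9 on chromosome 15 alone. The mature sequences that carry the results are given here 5′ to 3′ with the seed in capitals; the first 3 share 1 seed.
rno-miR-17-5p: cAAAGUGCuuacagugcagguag
rno-miR-20a-5p: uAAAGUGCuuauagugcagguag
rno-miR-20b-5p: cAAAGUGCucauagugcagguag
rno-miR-18a-5p: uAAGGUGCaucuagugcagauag
rno-miR-19b-3p: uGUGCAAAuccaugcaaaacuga
rno-miR-92a-3p: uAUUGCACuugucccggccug
rno-miR-17-1-3p: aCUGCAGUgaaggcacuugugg
rno-miR-20a-3p: aCUGCAUUacgagcacuuaca
rno-miR-20b-3p: aCUGCAGUgugagcacuucugg

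The miR-20a and miR-20b hairpins are shown whole because their 3p arms are set against each other in the results; capitals mark the mature 5p and then 3p arms. They lie at chr15:98588303-98588387 on the plus strand and chrX:137343197-137343268 on the minus strand.
Mir20a: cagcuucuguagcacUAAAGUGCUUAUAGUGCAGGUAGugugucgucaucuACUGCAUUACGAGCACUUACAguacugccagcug
Mir20b: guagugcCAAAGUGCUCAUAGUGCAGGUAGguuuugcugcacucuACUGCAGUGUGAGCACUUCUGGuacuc
Aligned from base 1 without gaps, the guides miR-20a-5p and miR-20b-5p differ at 2 of 23 bases (U1C and U10C, miR-20a-5p first). The passengers miR-20a-3p and miR-20b-3p differ at 6 of 21 bases (U7G, A9G, C10U, A19C, C20U and A21G), and their longest shared run is of 8 bases. Among 692 other mature rat miRNAs in the RefSeq table, the nearest to miR-20a-3p, miR-20b-3p and miR-17-2-3p, differed at 6 bases, and miR-17-1-3p was the nearest to miR-20b-3p, with 4 differing. miR-20b-3p has the same seed as miR-17-1-3p and another one than miR-20a-3p.

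Mature miRNA counts summed to between 9095260 and 11556061 per library. Levels are given as CPM, which puts libraries of different depth on 1 scale, with TMM factors that lessen the weight of a few abundant miRNAs, and are summarised as mean ± SD over 4 libraries. All markers of gastric and endocrine epithelium (miR-375-3p, miR-148a-3p, miR-7a-5p) and of general epithelium (5 of 5 miR-200 family arms) were detected in each group. The gastric and endocrine sum was 23241 to 33463 CPM in normal, 10820 to 23851 CPM in model and 21112 to 29645 CPM in XLHZ libraries, and 3 of the 4 model libraries lay below every normal one. The general epithelial sum was 69027 to 80230 CPM in normal, 55049 to 85127 CPM in model and 72140 to 88139 CPM in XLHZ libraries. The libraries also held smooth muscle miRNAs (4 of 4 arms of miR-143 and miR-145), with summed levels of 128350 to 223292, 145372 to 412567 and 96355 to 274924 CPM in the same order. Model library 2 had the highest smooth muscle sum, 412567 CPM, and the lowest general epithelial sum of all. In bulk mucosa, fewer cells of a type and less RNA per cell cannot be told apart.

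In normal mucosa the members were led by miR-19b-3p and miR-20a-5p, both guides. miR-19b-3p measured 2974, 3008, 3159 and 2003 CPM in normal libraries 1 to 4, a mean of 2786 ± 528 CPM. miR-20a-5p measured 1676, 1559, 1861 and 1467 CPM, a mean of 1641 ± 170 CPM. These 2 did not overlap in the normal group. The next were miR-19a-3p at 216 ± 50.0 CPM and miR-17-1-3p at 147 ± 13.0 CPM, whose ranges overlapped. miR-17-5p at 55.0 ± 4.72 CPM and miR-92a-3p at 42.9 ± 8.52 CPM overlapped as well, and stood above miR-18a-5p at 23.4 ± 4.67 CPM. The lower arms were miR-92a-1-5p at 9.63 ± 2.49, miR-20b-5p at 6.60 ± 1.25, miR-19b-1-5p at 2.97 ± 0.471 and miR-19a-5p at 1.03 ± 0.410 CPM. miR-17-2-3p, miR-18a-3p and miR-20a-3p closed the list at 0.723 ± 0.202, 0.680 ± 0.107 and 0.632 ± 0.133 CPM, with overlapping ranges. In model mucosa miR-19b-3p and miR-20a-5p kept ranks 1 and 2, but their ranges overlapped there, as they did not in the XLHZ group.

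Near-identical members differed widely in count. miR-19a-3p and miR-19b-3p differ at 1 base (U11C, miR-19a-3p first), and miR-19b-3p had 10.7 to 16.4 counts for each count of miR-19a-3p across the 12 libraries. miR-20a-5p had 22.5 to 31.1 counts per count of miR-17-5p, and 161 to 325 per count of miR-20b-5p, from which it differs at 2 bases each. Ligation in small RNA libraries favours some ends over others, and how near-identical miRNAs were counted is not given in the sources, so these are ratios of counts and not of molecules.

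**Figure D1:**
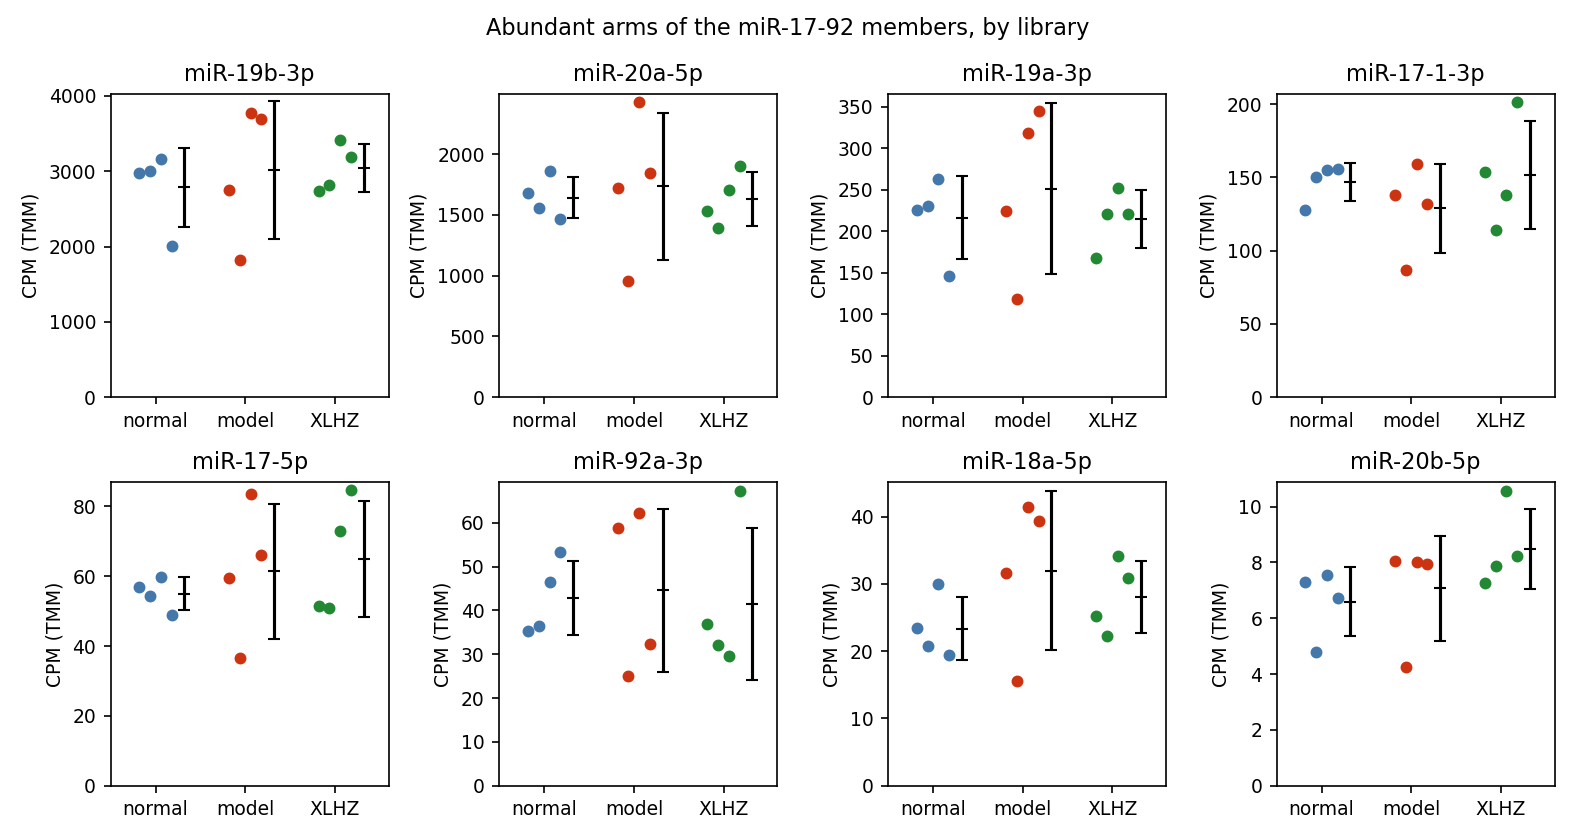
Level in CPM with TMM scaling of 8 member arms, the low miR-20b-5p among them, in each of the 12 libraries (points, libraries 1 to 4 from left to right within a group). The mean and SD of each group stand beside the points. The groups overlap in every panel, and the second model point, library 2, is the lowest of its group in each.

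The first comparison asked which members differed between atrophic and normal mucosa. A single member rose, the passenger miR-20a-3p, and none fell. Of the 15 members in this table, 12 passed the count filter and 1 was called by edgeR's quasi-likelihood test (adjusted p under 0.05), where 0.248% of all 403 tested miRNAs were called. DESeq2 also called this member alone, with 1.75% of 401 miRNAs called. The members had a median log2 fold change of 0.10, against -0.0072 over all tested miRNAs. On library totals alone these medians were -0.00091 and -0.12. The guides differed by less than their spread. miR-20a-5p measured 1717, 954, 2425 and 1848 CPM in model libraries 1 to 4, a mean of 1736 ± 605 CPM, with the normal values inside that range (log2 fold change 0.075, SE 0.26).

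miR-19b-3p measured 2752, 1827, 3770 and 3697 CPM in model libraries 1 to 4, on both sides of the normal values (log2 fold change 0.11, SE 0.25). The sign of the fold change of miR-20a-5p turned on library totals, with limma-trend and without model library 3. That of miR-19b-3p turned without model library 4, and all stayed near 0. The guide miR-18a-5p, whose seed is its own among the members, measured 31.7, 15.5, 41.4 and 39.4 CPM, against 19.4 to 29.9 CPM in normal libraries. Its log2 fold change of 0.45 (SE 0.31) was the largest of the 11 tested members other than miR-20a-3p, which ran from -0.20, for miR-17-1-3p, upwards. The adjusted p was 0.662 for miR-18a-5p and 0.937 for miR-20a-5p and miR-19b-3p in edgeR's test.

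Model library 2 held the lowest value of its group for 12 of the 14 members with 1 set of model counts, and model library 3 the highest for 9. The smooth muscle sum was 412567 CPM in library 2 and 347321 CPM in library 3, against 219442 and 145372 CPM in libraries 1 and 4, and leukocyte markers (5 of 5 detected) summed to 2956 CPM in library 2 and 5601 CPM in library 3. Intestinal-type markers (3 of 3 detected) summed to 6928 CPM in library 2, the lowest of the 12 libraries, and to 22295 CPM in library 3, the highest. The liver marker miR-122-5p stood at 2.23 CPM in library 2 and 95.1 CPM in library 3, also the highest. The part of these cell types in the members' levels was not tested. Leaving out model libraries 2 and 3 together, a setting added after seeing the data, left 1 member called, again miR-20a-3p.

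The passenger miR-20a-3p had 6, 7, 9 and 6 counts in normal libraries 1 to 4 and 284, 166, 1375 and 264 counts in model libraries 1 to 4. All 4 model libraries lay far above all 4 normal ones, and library 3 stood above the other model libraries. That library also had the lowest gastric and endocrine marker sum of the 12, 10820 CPM against 21407 to 23851 CPM in the other model libraries; the part of this in the level of miR-20a-3p was not tested. In scaled units normal mucosa held 0.632 ± 0.133 CPM and model mucosa 53.3 ± 60.2 CPM. The log2 fold change came to 6.38 with an SE of 0.82 (edgeR adjusted p = 0.00773), and to 5.21 without model library 3. It passed in all 12 other fits, which changed the scaling, filter, tool, libraries, miR-20b-3p counts or block, and in each fit with 1 library left out, where the adjusted p was at most 0.0496 (edgeR).

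The other member whose groups did not overlap was miR-18a-3p, the passenger of miR-18a, with 8, 8, 7 and 7 counts in normal libraries and 14, 11, 10 and 12 in model libraries. It failed the count filter in this comparison. Without that filter the log2 fold change of 0.78 (SE 0.36) did not pass, with an edgeR adjusted p of 0.663. Over all tested miRNAs, which leave out miR-18a-3p, 3.97% had groups that did not overlap. miR-17-2-3p, the X-linked passenger of miR-17, had 6 to 11 counts in normal and 4 to 12 counts in model libraries.

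**Figure D2:**
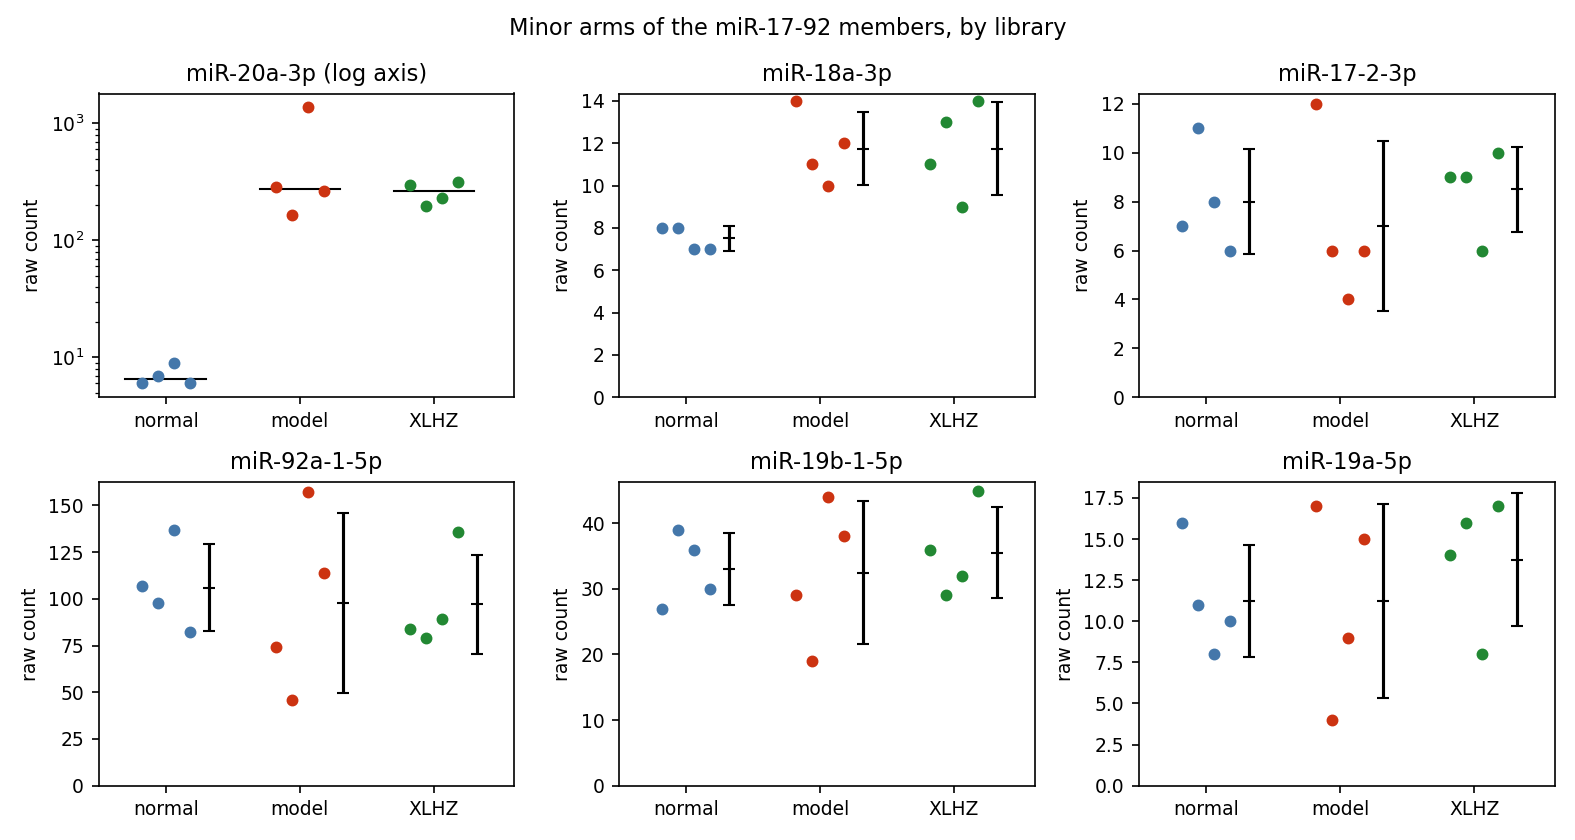
Raw counts of 6 low arms in each of the 12 libraries (points, libraries 1 to 4 from left to right within a group), with the mean and SD beside them. The miR-20a-3p panel has a log axis and lines at the medians instead; there 6 to 9 counts in normal libraries face 166 to 1375 in the exposed ones.

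The arms of a hairpin come from the same precursor, and their ratio within a library needs no scaling. For miR-17-1, miR-19b-1 and miR-92a-1, however, an arm is also annotated at a locus on X. The ratios of these hairpins can therefore mix precursors, whereas both arms of miR-20a are annotated at its own locus alone. The ratio of miR-20a changed against normal mucosa, and no other member hairpin's did. miR-20a-5p had 2749, 2504, 2302 and 3022 counts for each count of miR-20a-3p in normal libraries 1 to 4. In model libraries 1 to 4 it had 59.4, 51.4, 16.9 and 82.7. The passenger's share of the hairpin's counts was thus 0.0331 to 0.0434% in normal and 1.20 to 5.59% in model libraries, with no overlap. On the log2 scale with a pseudocount of 0.5, the ratio was 11.3 ± 0.153 in normal and 5.50 ± 0.993 in model mucosa, a change of -5.76 (SE 0.39, adjusted p = 8.04e-07, limma over 145 hairpins). Of those hairpins 0.69% passed, and 3.45% had groups that did not overlap. The exact two-sided permutation test over the 8 libraries gave p = 0.0286, the smallest it can give. The other 4 testable member hairpins changed by -0.12 to 0.32, and none passed.

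miR-17 was the member hairpin whose arms were nearest in count in the normal group, with the 3p arm ahead. miR-17-1-3p had 2.25, 2.76, 2.58 and 3.19 counts per count of miR-17-5p in normal libraries 1 to 4, and 1.88 to 2.99 in all exposed libraries. The 3p arm led although the 5p arm is annotated at an additional locus on X. The log2 ratio of 5p to 3p counts rose by 0.32 (SE 0.14) from normal to model, with an adjusted p of 0.324 in limma, which did not pass. The 3p arms of miR-19a, miR-19b-1 and miR-92a-1, which are the usual guides, led in all 12 libraries, and the 5p arms of miR-18a and miR-20a did so too. The 3p counts of miR-19b and miR-92a include any from their loci on X.

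**Figure D3:**
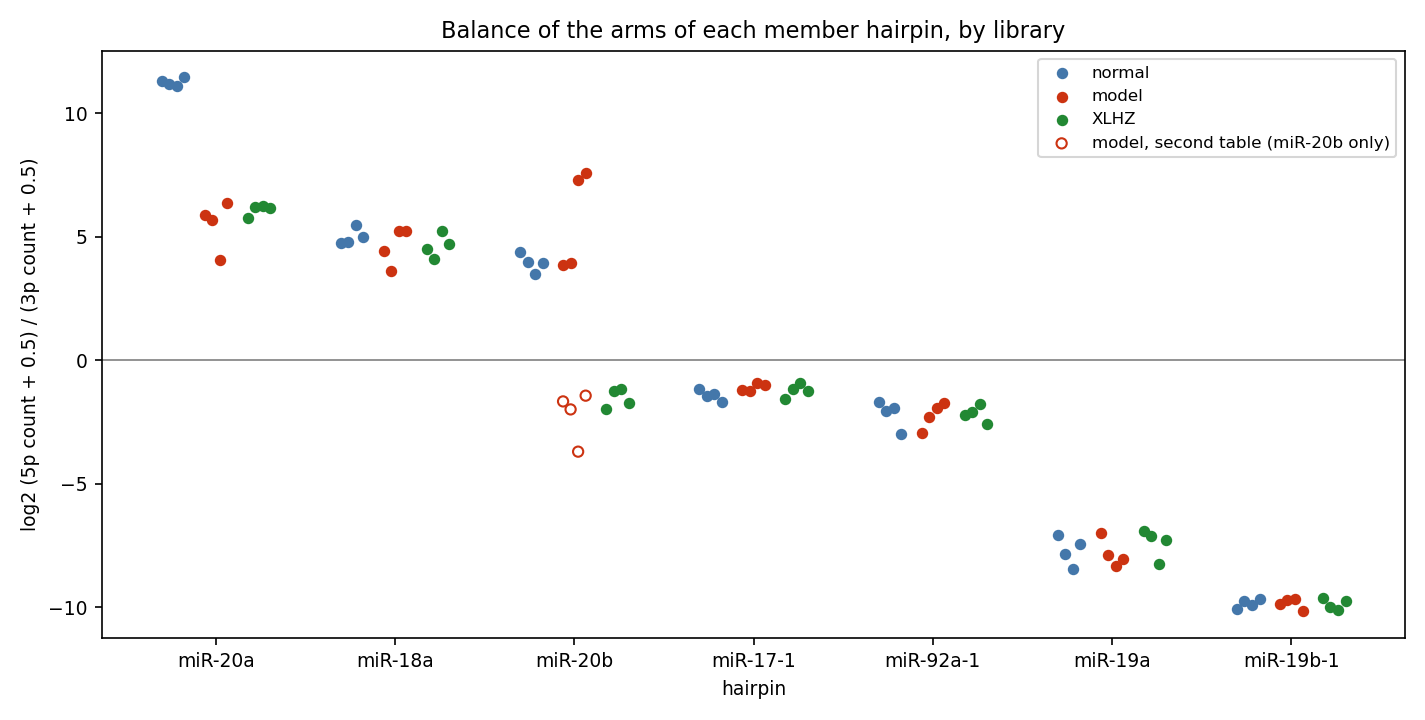
Log2 ratio of 5p to 3p counts (pseudocount 0.5) of 7 member hairpins in each library, coloured by group; values above 0 mean that the 5p arm leads. miR-20a drops from 11.3 ± 0.153 in normal to 5.50 ± 0.993 in model libraries, and miR-20b has its model libraries above 0 in one deposited table (filled) and below 0 in the other (open). The XLHZ points of miR-20b, also filled, come from that other table and cannot be set against its normal points.

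The passenger miR-20b-3p cannot be compared in this way, because its model counts depend on the deposited table. In the table of normal and model libraries it had 3, 3, 7 and 5 counts in normal libraries 1 to 4 and 5, 2, 0 and 0 in model libraries 1 to 4. A count of 0 in libraries 3 and 4 allows a level of up to 0.313 and 0.254 CPM (3 counts on the same TMM scale). In the table of model and XLHZ libraries the same 4 model libraries had 251, 152, 1003 and 254 counts. It was the only one of the 622 miRNAs in both tables whose model counts differed between them. With the first set miR-20b-3p failed the count filter against normal mucosa. With the second set in its place the edgeR fit gave 6.67 on the log2 scale, with an SE of 0.77 and an adjusted p of 0.00301. No call is made from either.

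In the second table miR-20b-3p followed miR-20a-3p closely. In model libraries 1 to 4 miR-20a-3p had 284, 166, 1375 and 264 counts beside the 251, 152, 1003 and 254 of miR-20b-3p. In XLHZ libraries 1 to 4 miR-20a-3p had 296, 198, 231 and 319 counts and miR-20b-3p had 298, 195, 246 and 336. The share of miR-20a-3p in the sum of both ran from 48.4 to 57.8% over these 8 libraries. In 7 of them the exact 95% binomial interval included equal counts, and in model library 3 it was 55.8 to 59.8%. These intervals cover counting error only. In the first table the share was 98.3 to 100% in model libraries and 54.5 to 70% in normal ones.

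The guide of the same hairpin, miR-20b-5p, had 79, 38, 77 and 94 counts in model libraries 1 to 4 in both tables. Against these, the passenger exceeded the guide 2.70 to 13.0 times in model and 2.26 to 3.92 times in XLHZ libraries in the second table. In the first table the guide exceeded the passenger 12 to 24 times in normal libraries. It also led there in model libraries 1 to 4, where the passenger had 5, 2, 0 and 0 counts. Which arm led in the model libraries thus depended on the table. The normal libraries are in the first table alone, so their counts under the processing of the second are not known here. Whether the difference between the tables bears on miR-20a-3p, whose model counts were identical in both, was not tested.

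**Figure D4:**
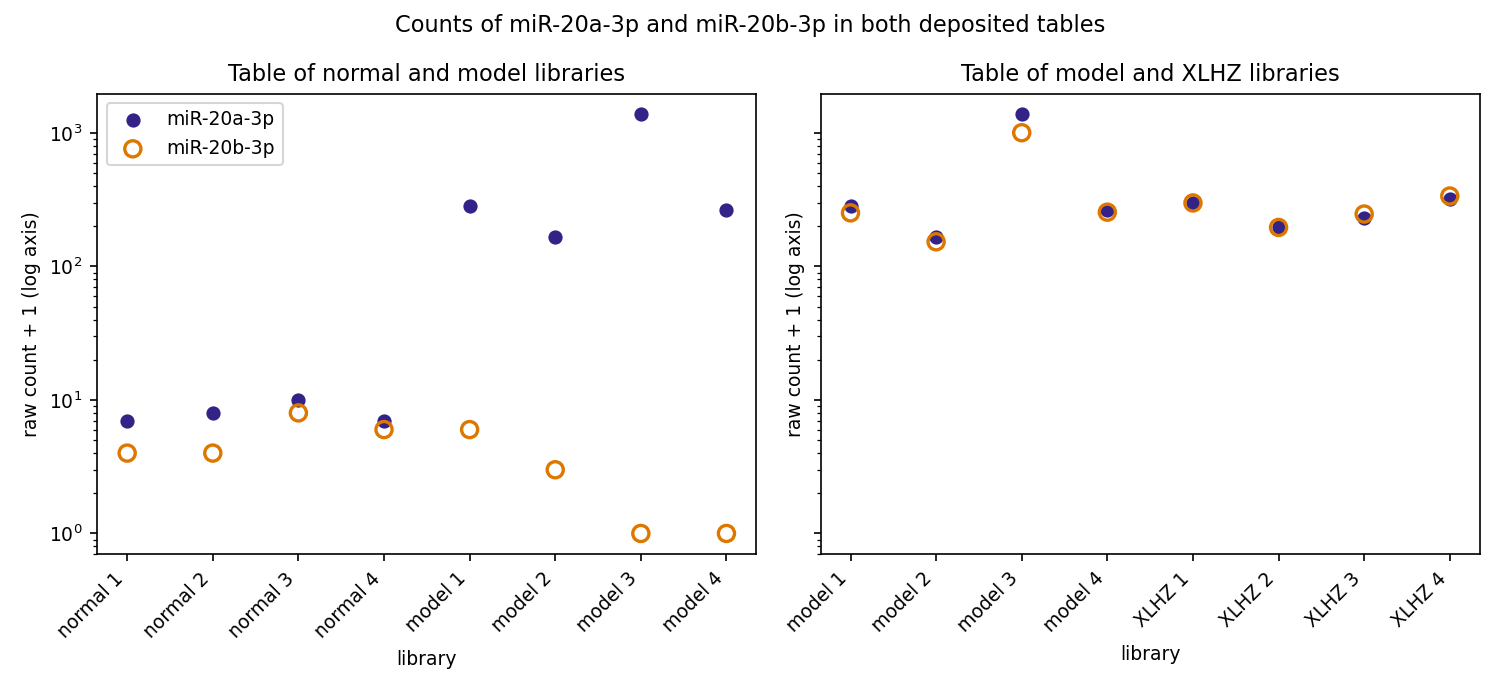
Raw counts plus 1 of miR-20a-3p (filled) and miR-20b-3p (open) in each library, on a log axis, in the table of normal and model libraries (left) and that of model and XLHZ libraries (right). The same 4 model libraries have 0 to 5 counts of miR-20b-3p on the left and 152 to 1003 on the right, where the symbols nearly coincide.

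The second comparison asked which members differed between exposed mucosa with and without the formula. No member rose or fell. Of the 15 members 14 were tested with edgeR, and 0 had an unadjusted p under 0.05. DESeq2 also called no member, with 0.251% of 398 miRNAs called. Over all 402 tested miRNAs edgeR called 0.249%, and 1.24% had groups that did not overlap, against 0 of the 14 tested members. miR-20a-3p measured 28.9, 18.5, 143 and 22.3 CPM in model libraries 1 to 4 and 28.3, 19, 22.4 and 26.3 CPM in XLHZ libraries 1 to 4. The groups overlapped, and model library 3 stood alone. In edgeR the difference was -1.18 on the log2 scale, with an SE of 0.63 and an adjusted p of 0.729, and it became 0.012 without that library. DESeq2 gave no adjusted p for it.

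miR-20a-5p measured 1531, 1390, 1700 and 1903 CPM in XLHZ libraries 1 to 4, within the range of the model libraries (log2 fold change -0.10, SE 0.27). miR-19b-3p measured 2740, 2824, 3419 and 3189 CPM, also within it (log2 fold change 0.00019, SE 0.23). For miR-20b-3p the counts of its own table gave -0.80 on the log2 scale (SE 0.56), with an edgeR adjusted p of 0.743. With the model counts of the other table it was 7.03 (edgeR adjusted p = 0.00053). The other 12 tested members lay between -0.24 and 0.25. The arm ratio of miR-20a moved by 0.59 (SE 0.36) and that of miR-20b by 0.66 (SE 0.39), each with an adjusted p of 0.792 in limma, where 0% of 148 hairpins passed and 1.35% had groups that did not overlap.

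The third comparison set formula-treated, exposed mucosa beside normal mucosa, with the tables joined and miR-20b-3p left out. As in the first, miR-20a-3p rose and no member fell, and both comparisons share the 4 normal libraries. Of the 14 members left 12 were tested and 1 was called, where 1.5% of 401 miRNAs were (0.998% higher and 0.499% lower). DESeq2 called the same member alone, with 1.75% of miRNAs called. miR-20a-3p had 296, 198, 231 and 319 counts in XLHZ libraries 1 to 4, all above the 6 to 9 of the normal libraries. The log2 fold change came to 5.20 with an SE of 0.24 (edgeR adjusted p = 1.24e-06). DESeq2 gave 5.23 with a larger SE of 0.35. With 6 to 9 counts in each normal library, the edgeR SE is likely too small. The 24.0 ± 4.11 CPM of miR-20a-3p in XLHZ libraries spread less than the 53.3 ± 60.2 CPM of the model group. In the latter 1 library stood apart.

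The guide had 54.2, 73.1, 75.9 and 72.5 counts per count of miR-20a-3p in XLHZ libraries 1 to 4, and the log2 arm ratio was 5.17 lower than in normal mucosa. This change of -5.17 (SE 0.18) had an adjusted p of 1.47e-09 in limma, where 2.07% of 145 hairpins passed and 3.45% had groups that did not overlap. Its SE comes from the spread between libraries, and counting error at the 6 to 9 normal counts of miR-20a-3p was not modelled separately. At so few counts, counting error alone exceeds the SD of 0.153 between the normal log2 ratios. The SE and adjusted p therefore make the change look more precise than its counts allow. The exact permutation test gave p = 0.0286, the smallest it can give. The other 11 tested members had log2 fold changes of -0.14 to 0.33, the highest that of miR-20b-5p. This X-linked guide measured 7.26, 7.88, 10.6 and 8.23 CPM in XLHZ and 7.32, 4.8, 7.55 and 6.71 CPM in normal libraries, and the groups overlapped (SE 0.19, adjusted p = 0.639, edgeR). miR-17-5p, of the same seed, had a log2 fold change of 0.22 (SE 0.19), miR-18a-5p one of 0.24 (SE 0.19), miR-20a-5p one of -0.034 (SE 0.12), miR-19b-3p one of 0.10 (SE 0.14) and miR-17-1-3p one of 0.021 (SE 0.20). miR-18a-3p had 11, 13, 9 and 14 counts, without overlap with the 7 to 8 counts of normal libraries. Without the count filter its difference of 0.63 on the log2 scale (SE 0.31) had an edgeR adjusted p of 0.695. Groups that did not overlap were found for 5.74% of tested miRNAs, which again leave out miR-18a-3p.

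Relatives that share a seed or a paralogous cluster with the members were miR-106b, miR-93, miR-25, miR-32, miR-92b and miR-363, with 12 arms in the files. No arm of these rose or fell in any comparison, with 10 tested in each. miR-25-3p, which has the seed of miR-92a-3p, was the most abundant at 3018 ± 255 CPM in normal, 2711 ± 232 CPM in model and 2858 ± 215 CPM in XLHZ mucosa. miR-93-5p, which has the seed of miR-20a-5p, measured 2372 ± 428, 2375 ± 623 and 2426 ± 190 CPM. miR-32-5p measured 263 ± 6.44, 271 ± 86.8 and 287 ± 11.0 CPM, and miR-106b-3p measured 101 ± 16.4, 95.9 ± 11.3 and 96.3 ± 9.32 CPM. The relatives' median log2 fold change was -0.048 in the first comparison, 0.053 in the second and -0.050 in the third. At an unadjusted p under 0.05 there was 1, miR-106b-5p in the third comparison (0.45 on the log2 scale, SE 0.15, edgeR adjusted p = 0.450). In that comparison 2 of the 10 tested relatives, miR-106b-5p and miR-32-5p, were higher without overlap, where 5.74% of all tested miRNAs did not overlap. In the first and second comparisons 0 did so. At the low end, miR-363-5p had 1 count in all libraries together.

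The miRNAs most like 3 members were sought over the 12 libraries by Pearson's r of log2(CPM + 1), as a description over 399 miRNAs with a mean of at least 10 counts. Libraries shared scaling and groups, so r is not a test. miR-20a-5p was most like miR-92a-1-5p (r = 0.91), miR-17-5p (0.91) and miR-872-5p (0.88). miR-19b-3p was most like its near-identical relative miR-19a-3p (0.95), then miR-872-3p (0.88) and miR-18a-5p (0.87). Member arms thus filled 4 of these 6 places. Of these, miR-17-5p is annotated on X as well and differs from miR-20a-5p at 2 bases. The passenger miR-20a-3p was most like miR-18a-3p (0.77), miR-551b-3p (0.74) and miR-204-5p (0.72). miR-551b-3p had 4 to 15 counts in normal libraries, 272, 1574, 283 and 7 in model libraries 1 to 4 and 174 to 241 in XLHZ libraries. Its lowest exposed library, model 4, had 264 counts of miR-20a-3p, so the 2 did not move together there.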

How the data were processed

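Small RNA libraries of 12 gastric mucosa samples were made with a QIAseq kit, per the labels' protocols. Per the submitters' processing notes, the tools include Bowtie and DESeq (no version given); the genome build and how reads were counted are not given in the sources. Their values are raw counts, deposited by the authors in 2 tables with 639 and 632 mature miRNAs. The deposited CPM columns equal each count over its column total and served that check only. Of 622 shared miRNAs, 621 had the same model counts in each table. miR-20b-3p was kept in its own table's fit and left out of the join; a miRNA in 1 table alone (at most 3 counts) was set to 0 in the other.

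Each comparison was fitted on its 8 libraries with edgeR 4.0.16 (glmQLFTest, TMM, filterByExpr minimum 10) in R 4.3.3, with Benjamini-Hochberg adjustment over every tested miRNA and a threshold of 0.05. An SE beside an edgeR log2 fold change is that change's absolute value over the square root of the test's F statistic. Arm ratios were tested with limma 3.58.1 over hairpins with a mean of at least 10 counts in both arms. The procedure was tested on simulated data. Named miRNAs are all members, up to 4 of the most abundant relatives, and the 3 most alike miRNAs per chosen member; miR-106b-5p, miR-363-5p and the fold changes given singly were chosen after their values were seen. Members and lists were chosen with earlier results of these data known. All pairs of libraries within a group differed by far more than sampling noise (chi-square at least 175 per degree of freedom). Alternatives included DESeq2 1.42.0, other scalings and filters, a replicate block and leaving out each library.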

Additional observations from a re-analysis of the deposited data

Results flagged for a closer look

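Of 46 groups of 4 libraries checked, 5 had a library far from the other 3; chance flags about 1 in 20. miR-20a-3p stood at 143 CPM in model library 3, against 18.5 to 28.9 CPM in the other model libraries. In the same library miR-20b-3p of the table of model and XLHZ libraries stood at 105 CPM, against 17.0 to 25.6 CPM. miR-19b-3p was low in normal library 4, at 2003 CPM against 2974 to 3159 CPM. miR-20b-5p was low in model library 2, at 4.25 CPM against 7.96 to 8.04 CPM. miR-17-2-3p was low in XLHZ library 3, at 0.582 CPM against 0.823 to 0.865 CPM, which rests on 6 counts.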

How the results depend on the processing

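The calls of miR-20a-3p and of the miR-20a arm ratio against normal mucosa kept their direction and passed in every alternative run. These runs all drew on the same deposited normal counts. They cannot show how the normal libraries would be counted under the processing that gave the other model counts of miR-20b-3p. The count of members called moved with 1 setting alone, chosen after seeing the data: with the other table's model counts of miR-20b-3p it was 2 for model against normal and 1 for XLHZ against model, where miR-20b-3p then had a log2 fold change of 7.03. All miRNAs called for model against normal were 1, but 2 with upper-quartile factors, library totals or at least 50 counts in 4 libraries, 3 with no count filter or the other miR-20b-3p counts, 4 in 1 fit of all libraries and 7 with DESeq2; leaving out 1 library gave 1 to 4. For XLHZ against model there was 1, but 0 without model libraries 2 and 3, 2 with the other miR-20b-3p counts, and 0 to 1 with 1 library left out. For XLHZ against normal there were 6, but 2 in 1 fit of all libraries. Hairpins called were 1 for model against normal, 2 with the replicate number as a block and 1 to 2 with a library left out; for XLHZ against normal they were 3, but 1 with at least 50 counts in both arms.

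Some fold changes that did not pass turned sign, most of them near 0; those of miR-20a-3p (-1.18) and miR-20b-3p (-0.80) for XLHZ against model turned without model library 3. For model against normal, library totals gave -0.041 for miR-20a-5p and -0.014 for miR-20b-5p, and limma-trend -0.0029 for miR-20a-5p; leaving out a library gave -0.094 to 0.29 for miR-20a-5p and -0.0034 to 0.29 for miR-19b-3p. For XLHZ against model, library totals gave 0.044 for miR-18a-3p and 0.067 for miR-20a-5p. miR-19b-3p was -0.016 with RLE factors and with DESeq2, -0.0036 with at least 50 counts and -0.12 without model libraries 2 and 3, where miR-20b-3p was 0.038. Leaving out a library gave -0.11 to 0.24 for miR-17-5p, -0.18 to 0.13 for miR-19b-3p, -1.43 to 0.012 for miR-20a-3p, -0.30 to 0.083 for miR-20a-5p and -1.04 to 0.18 for miR-20b-3p. For XLHZ against normal, miR-20a-5p was 0.041 with upper-quartile factors and 0.026 on library totals, and miR-17-1-3p was -0.012 with limma-trend and -0.011 with the replicate block. Leaving out a library gave -0.16 to 0.12 for miR-17-1-3p, -0.00014 to 0.20 for miR-19b-3p and -0.13 to 0.064 for miR-20a-5p. The cause was not tested. Replicate numbers showed no consistent pairing of the libraries (correlations of deviations from -0.37 to 0.50), but 4 libraries per group cannot exclude it. With the block, the log2 fold change of miR-20a-3p was 5.90 for model and 5.18 for XLHZ against normal, and no other member's call changed. Depth limits miR-17-2-3p, miR-18a-3p and miR-19a-5p, at 4 to 17 counts a library. It also limits miR-20a-3p in normal libraries, at 6 to 9 counts, on which its changes against normal mucosa rest. With a pseudocount of 5 instead of 0.5, the log2 arm ratio of miR-20a changed by -5.09 for model and -4.50 for XLHZ against normal.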
